A study of Mus musculus with 6 samples.

Results

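The constitutive proteasome subunits were examined in cultured mouse fetal liver macrophages of wild-type and Ahrr-deficient fetuses. Ahrr encodes a repressor that competes with the aryl hydrocarbon receptor, a ligand-activated transcription factor. Members were the protein-coding genes of the deposited table whose symbol begins with Psma to Psmg and a number, without the immunoproteasome genes Psmb8, Psmb9 and Psmb10. The rule gave 46 of 16111 genes. The members comprised 8 core alpha subunits, 7 core beta subunits, 6 base ATPases, 11 non-ATPase subunits of base and lid, 3 base assembly chaperones, 4 activators, 1 inhibitor and 4 core assembly chaperones. Another 2 genes matched by symbol only: Psmc3ip, which encodes a meiotic recombination factor, and Psme2b, a single-exon relative of Psme2. Of the 46, 45 had enough reads to be tested, and Psmc3ip had not. The rule for members names no measured value, but it was set with earlier results of these data known.

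The study compared 2 groups of 3 cultures each. WT cultures came from wild-type fetuses and Ahrr-deficient cultures from fetuses labelled AhRR-/-, all on the strain given as C57BL/6 RCC. Macrophages were taken from the fetal liver at E13.5 and kept for 5 weeks with 2% GM-CSF, the growth factor that all 6 cultures shared, and the floating cells were harvested, so the cells measured are a culture-expanded population and not fresh liver macrophages. The labels number the mice 1 to 3 in each genotype and do not say whether a culture pooled fetuses, nor how the Ahrr allele was made.

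The proteasome is the main protease of the cytosol and nucleus, and it degrades proteins tagged with ubiquitin. Its core particle is a barrel of alpha and beta rings with the catalytic sites on Psmb5, Psmb6 and Psmb7. The regulatory particle caps the barrel, and its ATPases unfold substrates while its non-ATPase subunits bind and remove ubiquitin. In macrophages the complex also supplies peptides for MHC class I and degrades inhibitors of NF-kB. Transcription of its subunit genes is known to be raised together by Nfe2l1 when proteasome activity is limiting.

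Library depth ranged from 3556106 counts (Ahrr-deficient replicate 1) to 41668336 counts (Ahrr-deficient replicate 2). The gene CT010467.1 took 5.28% of the counts of WT replicate 2 and at most 0.0679% in the other libraries. Ahrr itself had 48.9, 50.1 and 55.2 normalized counts in WT and 23.4, 26.2 and 12.6 in Ahrr-deficient replicates 1 to 3, so the groups did not overlap (log2 fold change -1.21, SE 0.26, edgeR adjusted p = 0.0151). All 8 listed macrophage markers were in the table, with sums of 256162 to 285751 normalized counts in WT and 171565 to 250902 in Ahrr-deficient libraries. Csf1r fell and Mrc1 rose among them, and the list's median log2 fold change was -0.36: every marker except Mrc1 had a negative value. Of 37 markers of other cell types, 9 were in the table and 2 were tested, and 1 of these, Itga2b, was lower. The 7 proliferation markers summed to 1399.7 to 1932 normalized counts in WT and 1858 to 2914 in Ahrr-deficient libraries. Of the 7, 3 were higher at an edgeR adjusted p under 0.05: Mki67, whose groups overlapped, Top2a and Ccnb1. Cdk1, Pcna, Mcm2 and Mcm5 did not pass. Over all tested genes 9.62% were called higher and 9.95% lower. The part of these markers in the results below was not tested.

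Few transcripts of the proteasome passed the threshold between the genotypes. The 3 that did with all libraries encode subunits of the regulatory particle, and which members passed depended on the processing. Among 45 tested members 3 rose in Ahrr-deficient cells and 0 fell at an edgeR adjusted p under 0.05. They were the lid deubiquitinase Psmd14, the lid subunit Psmd11 and the base ATPase Psmc6, with rises of 1.21-fold to 1.39-fold. The share called higher was 6.67% of the members, beside 9.62% of all 11408 tested genes, and the share called lower was 0 of 45 members beside 9.95%, so the share of members called was not above the background in either direction. At an unadjusted edgeR p under 0.05 there were 11 members, 10 of them higher (18.4% of all tested genes were) and Psmf1 lower (17.4%). The median log2 fold change was 0.15 over the members and 0.01 over all tested genes. In bulk RNA, fewer cells of a type and less RNA per cell cannot be told apart.

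The sign of the fold change was more uniform than the calls. It was positive for 36 of 45 members (80%), beside 50.9% of all tested genes. In 14 members (31.1%) all 3 Ahrr-deficient libraries lay above all 3 WT libraries, beside 19.1% of all tested genes, and in 5 (11.1%) all lay below, beside 19.5%. The middle 50% of the members' log2 fold changes ran from 0.03 to 0.23, and that of all tested genes from -0.23 to 0.22. Subunits of 1 complex are not independent of each other, so these shares carry no test. By library, the median member lay -0.01, 0.23 and 0.16 from its WT mean (log2 scale) in Ahrr-deficient replicates 1 to 3. In WT these medians were 0.02, -0.02 and 0.00. The shift was thus seen in Ahrr-deficient replicates 2 and 3 and not in replicate 1.

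**Figure D1:**
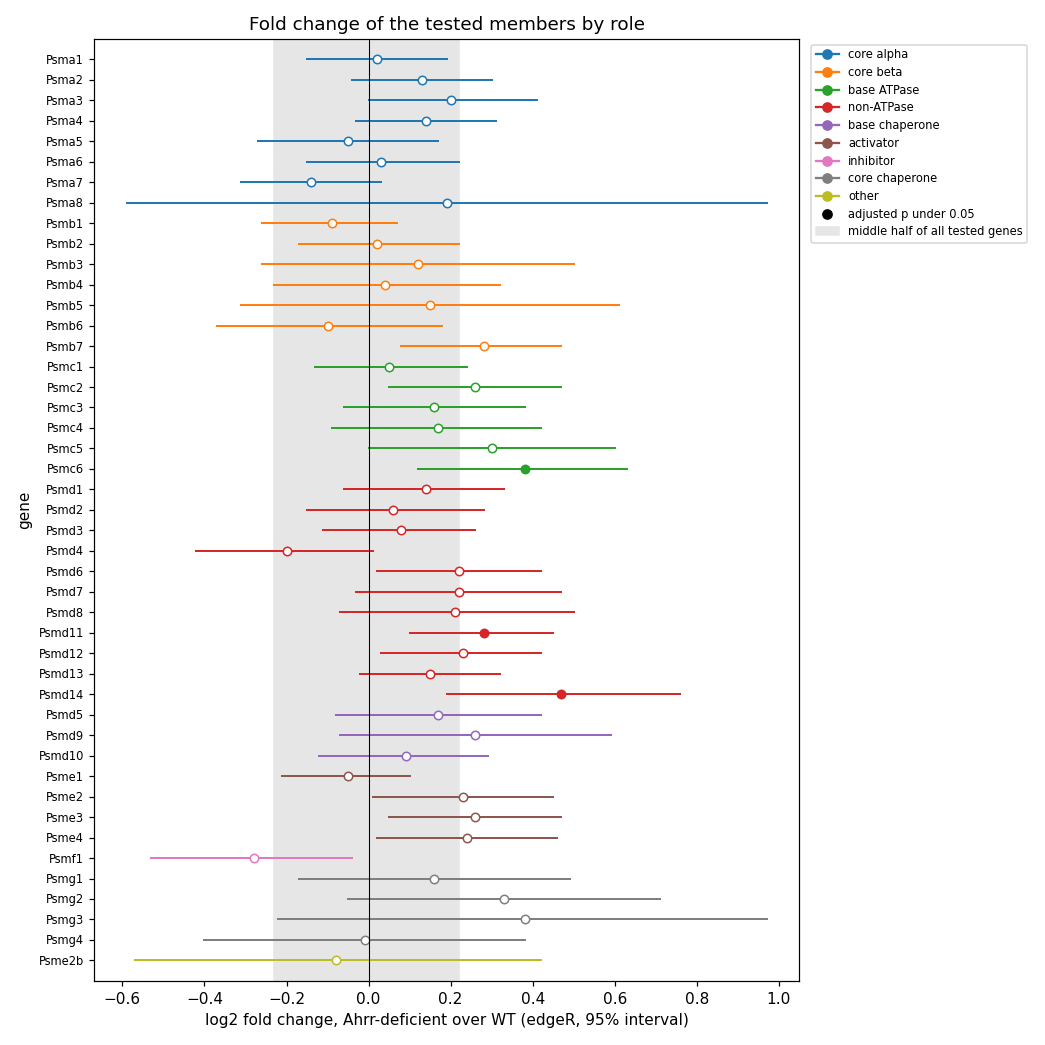
EdgeR log2 fold change (x axis, Ahrr-deficient over WT) of the 45 tested members (y axis), coloured by role. Lines are 95% intervals, filled points have an adjusted p under 0.05, and the grey band runs from -0.23 to 0.22, the quartiles of all tested genes. Filled points are Psmd14, Psmd11 and Psmc6, and Psmf1 lies lowest at -0.28.

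Psmd14 (ENSMUSG00000026914.15, chromosome 2, 61711694 to 61800376, GRCm38), whose product removes ubiquitin chains as the substrate is translocated, had 495, 536 and 498 normalized counts in WT replicates 1 to 3. In Ahrr-deficient replicates 1 to 3 it had 568, 815 and 701. All Ahrr-deficient libraries were above the highest WT library, replicate 1 by the least. The mean went from 509 ± 22.9 to 695 ± 124 (SD, n = 3), a log2 fold change of 0.47 (95% interval 0.19 to 0.76, edgeR adjusted p = 0.0297).

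Psmd11 (ENSMUSG00000017428.16, chromosome 11, 80428615 to 80473248, GRCm38), a scaffold subunit of the lid, had 551, 564 and 547 normalized counts in WT and 682, 656 and 676 in Ahrr-deficient replicates 1 to 3. Both groups were tight and well apart. Means were 554 ± 8.63 and 671 ± 13.8 (SD, n = 3), with a log2 fold change of 0.28 (95% interval 0.10 to 0.45, edgeR adjusted p = 0.0373). Of the stretches of 75 bases in its transcripts, 4.15% also occur in transcripts of other genes, so some of its reads could belong elsewhere.

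Psmc6 (ENSMUSG00000021832.8, chromosome 14, 45329788 to 45349705, GRCm38), a subunit of the ATPase ring, had 628, 651 and 591 normalized counts in WT and 691, 929 and 779.7 in Ahrr-deficient replicates 1 to 3. The groups did not overlap, and replicate 1 was again the lowest of the Ahrr-deficient libraries. The mean went from 623 ± 30.3 to 799.8 ± 121 (SD, n = 3), a log2 fold change of 0.38 (95% interval 0.12 to 0.63, edgeR adjusted p = 0.0449).

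These 3 calls stood close to the threshold. Under 17 alternatives Psmd14 passed it in 9, Psmc6 in 6 and Psmd11 in 5. Leaving out any 1 of the 3 WT libraries, or Ahrr-deficient replicate 2 or 3, ended all of them (edgeR adjusted p between 0.0721 and 0.133 for Psmd14, 0.0881 and 0.170 for Psmd11, 0.0991 and 0.162 for Psmc6), and offsets for the GC content of transcripts also ended them, at 0.0866, 0.261 and 0.316, with log2 fold changes of 0.38, 0.13 and 0.22. Without any 1 WT library the log2 fold changes stayed near those with all libraries (0.44 to 0.51 for Psmd14, 0.26 to 0.29 for Psmd11, 0.33 to 0.41 for Psmc6), but without Ahrr-deficient replicate 2 that of Psmd14 was 0.33 and that of Psmc6 0.24.

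Leaving out Ahrr-deficient replicate 1, the shallowest library, had the opposite effect and gave 15 of 45 members higher (33.3%), beside 16.0% of all tested genes in that fit. Of these 15, 10 belong to the regulatory particle (Psmc2, Psmc3, Psmc4, Psmc5, Psmc6, Psmd6, Psmd7, Psmd8, Psmd11 and Psmd14), 2 to the core (Psmb5 and Psmb7) and 3 to other roles (Psme2, Psme3 and Psmg2). The 3 genes called with all libraries were among the 15. Without both Ahrr-deficient replicate 1 and WT replicate 2, an alternative added after the data were seen, 12 members were higher (26.1%), beside 13.0% of all tested genes.

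Members called lower numbered 0 in each of these fits. Among all tested genes, the shares called higher and lower were 2.86% and 3.21% without WT replicate 1, 3.72% and 4.43% without WT replicate 2, and 4.17% and 5.18% without WT replicate 3. They were 16.0% and 16.6% without Ahrr-deficient replicate 1, 4.10% and 4.21% without replicate 2, 5.04% and 5.26% without replicate 3, and 13.0% and 12.6% without the 2 libraries. With other scalings and tools on all 6 libraries, 0 to 4 members were higher and 0 lower. There the shares of all tested genes called higher and lower were 9.45% and 10.0% with RLE scaling, 8.18% and 11.4% with upper-quartile scaling, 5.82% and 5.89% with no filter, and 9.58% and 10.0% over genes averaging 50 counts or more. DESeq2 gave 7.87% and 8.15%, limma-voom 11.6% and 12.5%, and thinning to the smallest library 5.98% and 6.15%. GC offsets gave 8.92% and 8.86%, a replicate block 5.84% and 6.35%, and both together 5.36% and 5.56%.

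**Figure D2:**
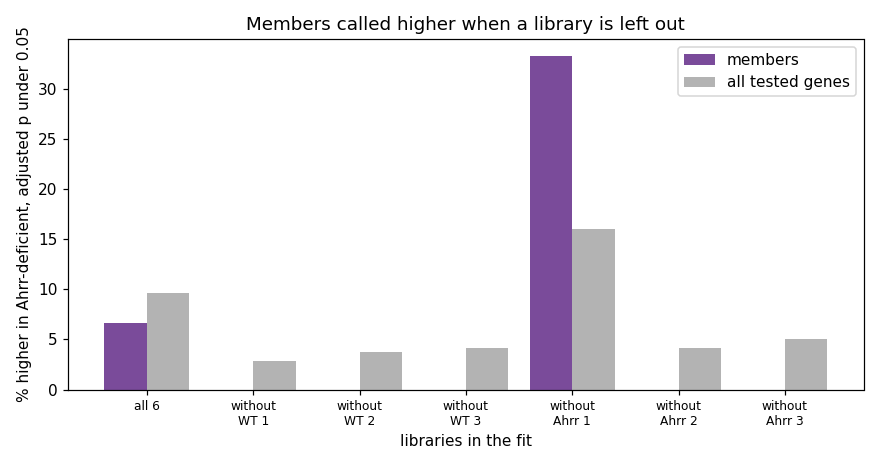
Share of tested members (purple) and of all tested genes (grey) called higher in Ahrr-deficient cells (y axis, %, edgeR adjusted p under 0.05) with all 6 libraries and with each library left out (x axis). Members reach 6.67% with all libraries, 33.3% without Ahrr-deficient replicate 1 and 0 of 45 without any other single library.

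Promoter sequences are shown for Psmd14, Psmd11 and Psmc6 because these are the members that rose. RefSeq windows on GRCm38.p6, from 250 bases before to 50 after a start site, matched 38 of 46 members by symbol. Below, the 250 bases before the start site are given 5′ to 3′ on the plus strand, with capitals for CCGGAAG (the core of sites for ETS factors), TGACNNNGC (the core of the antioxidant response element, which Nfe2l1 and Nfe2l2 bind) and CCAAT on either strand.
Psmd14, chr2:61711444-61711693: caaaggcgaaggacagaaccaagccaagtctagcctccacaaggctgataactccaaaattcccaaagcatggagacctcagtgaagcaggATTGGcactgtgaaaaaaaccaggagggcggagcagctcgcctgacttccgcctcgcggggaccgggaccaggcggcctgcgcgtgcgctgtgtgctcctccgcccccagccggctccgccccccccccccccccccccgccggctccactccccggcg
Psmd11, chr11:80428365-80428614: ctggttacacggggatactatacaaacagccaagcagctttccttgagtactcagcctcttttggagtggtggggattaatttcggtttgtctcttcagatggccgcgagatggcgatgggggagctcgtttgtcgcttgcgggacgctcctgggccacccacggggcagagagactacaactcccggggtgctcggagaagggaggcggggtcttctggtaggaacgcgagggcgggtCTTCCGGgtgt
Psmc6, chr14:45329574-45329823: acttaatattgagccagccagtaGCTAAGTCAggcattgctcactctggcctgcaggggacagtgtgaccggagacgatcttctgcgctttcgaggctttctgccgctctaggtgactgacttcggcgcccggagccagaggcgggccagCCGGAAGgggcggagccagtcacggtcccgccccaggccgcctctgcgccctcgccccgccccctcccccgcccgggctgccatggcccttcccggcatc

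Across the 38 members with a window, TGACNNNGC on either strand was found in 6 (15.8%), beside 14% of all 27025 genes with a window and 17.4% of the tested genes. The 6 occurrences are given with up to 10 bases on each side, on the strand that reads TGACNNNGC, with that motif in capitals.
Psmb5, chr14:54618024-54618052, minus strand: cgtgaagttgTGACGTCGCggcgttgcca
Psmb6, chr11:70525338-70525366, plus strand: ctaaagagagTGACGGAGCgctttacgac
Psmc6, chr14:45329587-45329615, minus strand: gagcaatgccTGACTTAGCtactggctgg
Psmd9, chr5:123228149-123228177, plus strand: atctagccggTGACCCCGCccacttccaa
Psmd12, chr11:107479278-107479299, minus strand: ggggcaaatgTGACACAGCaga
Psme4, chr11:30771758-30771786, minus strand: gctcttctggTGACGCTGCagccgcagcg

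CCGGAAG on either strand was found in 15 of 38 members (39.5%), beside 9.93% of all genes with a window and 22% of the tested genes. It was present in 9 of 14 regulatory particle genes with a window and in 1 of 11 core particle genes. This motif was singled out after its counts were seen, among 10 motifs searched. The occurrences in regulatory particle genes are shown because the 3 called genes belong to that particle, with CCGGAAG in capitals. Psmc2 has 2 start sites with 1 occurrence each.
Psmc1, chr12:100110164-100110190, minus strand: atcgccaccgCCGGAAGtgcatccacc
Psmc2, chr5:21785181-21785207, minus strand: gagccccatcCCGGAAGtgctcactgg
Psmc2, chr5:21786713-21786739, minus strand: ctcttccccaCCGGAAGtagctccgcg
Psmc6, chr14:45329714-45329740, plus strand: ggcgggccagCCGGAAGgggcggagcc
Psmd2, chr16:20651616-20651642, minus strand: gtcctccagaCCGGAAGcgccctgcgg
Psmd4, chr3:95042723-95042749, minus strand: tacagctgttCCGGAAGctgctgcgaa
Psmd6, chr14:14120974-14121000, minus strand: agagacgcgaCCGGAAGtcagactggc
Psmd11, chr11:80428594-80428620, minus strand: aaacacacacCCGGAAGacccgccctc
Psmd12, chr11:107479501-107479527, minus strand: gtcactcgcaCCGGAAGtcgcccgctc
Psmd13, chr7:140882378-140882404, plus strand: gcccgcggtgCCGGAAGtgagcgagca

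Psmd4, with CCGGAAG in its promoter window, had a negative fold change, and Psmd14, with the largest rise, had no match to that motif in its window. A match is a run of letters and not a measured binding site.

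The core alpha ring, which gates the barrel, showed no called gene among its 8 members, beside 9.62% of tested genes called higher and 9.95% called lower. Its median log2 fold change was 0.08, with 6 positive and 2 negative values. Psma3 was the highest at 0.20 (SE 0.09, edgeR adjusted p = 0.145), with 446, 447 and 428 normalized counts in WT and 465, 545 and 497 in Ahrr-deficient replicates 1 to 3, and 14.4% of its 75-base stretches also occur in processed pseudogenes. Psma7 was the lowest at -0.14 (SE 0.08, edgeR adjusted p = 0.229), with 944, 929 and 948 in WT and 901, 814 and 858 in Ahrr-deficient libraries. Neither gene overlapped between the groups. With GC offsets the log2 fold change was 0.07 for Psma3 and 0.01 for Psma7.

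Psma6 had 1251, 1196 and 1302 normalized counts in WT and 1308, 1337 and 1189.9 in Ahrr-deficient replicates 1 to 3, with overlapping groups (log2 fold change 0.03, 95% interval -0.15 to 0.22). Psma8, the testis form of the alpha subunit that Psma7 otherwise supplies, had 27.1, 38.9 and 14.5 normalized counts in WT and 17.6, 27.6 and 40.8 in Ahrr-deficient libraries. As few as 6 reads stood behind a library's value for Psma8, and its interval was wide (-0.59 to 0.97).

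The core beta ring also had no called gene among 7, beside 9.62% of tested genes called higher and 9.95% called lower. Its median log2 fold change was 0.04. Psmb7, a catalytic subunit with trypsin-like activity, was nearest to the threshold, with 473, 454 and 466 normalized counts in WT and 541, 599 and 539 in Ahrr-deficient replicates 1 to 3. Its groups did not overlap (log2 fold change 0.28, SE 0.09, edgeR adjusted p = 0.0532), and limma-voom called it. With GC offsets its log2 fold change was 0.14 (edgeR adjusted p = 0.294), and after thinning 0.17 (0.329). Exons of Nek6 overlap 405 bases of Psmb7 exons on the opposite strand, and whether counting used strand is not given in the sources used here.

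The other catalytic subunits varied more within the Ahrr-deficient group. Psmb5, with chymotrypsin-like activity, had 279.7, 317 and 277 normalized counts in WT and 190.2, 398 and 325 in Ahrr-deficient replicates 1 to 3 (log2 fold change 0.15, 95% interval -0.31 to 0.61). Psmb6, with caspase-like activity, had 1606, 1529 and 1289 in WT and 1147, 1549.6 and 1409.7 in Ahrr-deficient libraries (log2 fold change -0.10, 95% interval -0.37 to 0.18). Replicate 1 was the lowest of all 6 libraries in both genes. Of the 75-base stretches of Psmb5, 36.8% also occur in a processed pseudogene or in Mir686. The structural subunits Psmb3 and Psmb4 had the same shape, with 331 and 811 normalized counts in Ahrr-deficient replicate 1 against 505 to 578 and 1107 to 1165 in replicates 3 and 2.

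The base ATPases form the ring that unfolds substrates. All 6 had a positive fold change, with a median of 0.21 and 1 called gene, Psmc6. Of all tested genes 50.9% had a positive value and 9.62% were called higher. Psmc2 had 783, 732 and 758 normalized counts in WT and 808, 1001 and 892 in Ahrr-deficient replicates 1 to 3 and did not overlap (log2 fold change 0.26, SE 0.09, edgeR adjusted p = 0.0802). Its log2 fold change was 0.13 with GC offsets (edgeR adjusted p = 0.418) and 0.16 without Ahrr-deficient replicate 2. Psmc5 had 475, 400.4 and 453 in WT and 433, 632 and 547 in Ahrr-deficient libraries (log2 fold change 0.30, SE 0.13, edgeR adjusted p = 0.142). Replicate 1 lay inside the WT range for Psmc5, and without replicate 2 the log2 fold change was 0.15. Psmc3 had 811, 717 and 784 in WT and 746, 912 and 917 in Ahrr-deficient libraries, likewise with replicate 1 inside the WT range (log2 fold change 0.16, SE 0.10, edgeR adjusted p = 0.261). With GC offsets its log2 fold change was 0.27 and its edgeR adjusted p 0.0403.

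Of the 11 non-ATPase subunits 10 had a positive fold change, the median was 0.21, and Psmd14 and Psmd11 were called. Beside this, 50.9% of all tested genes had a positive value and 9.62% were called higher. Psmd12, a lid scaffold subunit, had 518, 471 and 524 normalized counts in WT and 606, 604 and 569 in Ahrr-deficient replicates 1 to 3 (log2 fold change 0.23, edgeR adjusted p = 0.0904). Psmd6, a further lid subunit, had 561, 519 and 557 in WT and 571, 669 and 657 in Ahrr-deficient libraries (log2 fold change 0.22, edgeR adjusted p = 0.112). In both genes the groups did not overlap. Psmd8, the most abundant member by normalized count, had 2713, 2619.5 and 2443 in WT and 2417, 3429 and 3149 in Ahrr-deficient libraries (log2 fold change 0.21, edgeR adjusted p = 0.259), with replicate 1 below all others.

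Psmd4, the ubiquitin receptor of the base, was the exception in the regulatory particle. It had 1129, 1140.1 and 1071 normalized counts in WT and 825, 1038 and 1016 in Ahrr-deficient replicates 1 to 3. All Ahrr-deficient libraries lay below WT, replicate 1 by the most (log2 fold change -0.20, SE 0.10, edgeR adjusted p = 0.162).

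**Figure D3:**
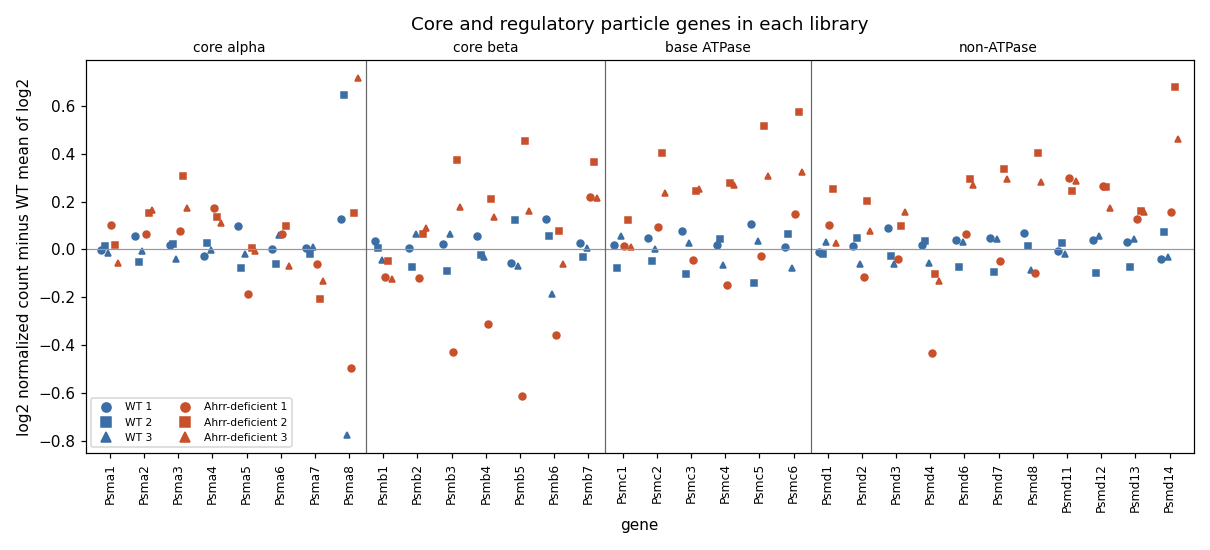
Level of each core and regulatory particle gene in each library (y axis, log2 normalized count minus the WT mean of log2; x axis, genes by role). Blue marks are WT and orange marks Ahrr-deficient, with circles, squares and triangles for replicates 1 to 3. Orange squares and triangles lie above 0 for most ATPase and non-ATPase genes. An orange circle is the lowest mark of its gene for Psma5, Psmb2, Psmb3, Psmb4, Psmb5, Psmb6, Psmc4, Psmd2, Psmd4 and Psmd8.

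The 2 particles were also compared by their sums, as a description without a test. The 15 core genes summed to 11879, 11542 and 11425 normalized counts in WT and to 11003, 12449.9 and 11779 in Ahrr-deficient replicates 1 to 3. These ranges overlapped. The 17 regulatory particle genes summed to 14811, 14354 and 14191 in WT and to 14254, 17619.6 and 16475 in Ahrr-deficient libraries. Their ratio, regulatory over core, was 1.247, 1.244 and 1.242 in WT and 1.295, 1.415 and 1.399 in Ahrr-deficient replicates 1 to 3. So the ratio was nearly constant in WT (1.244 ± 0.002, SD, n = 3). It was higher in each Ahrr-deficient library (1.370 ± 0.065, SD, n = 3), but not in the same way. In Ahrr-deficient replicate 1 the regulatory sum lay inside the WT range and the core sum below every WT library. In Ahrr-deficient replicates 2 and 3 the regulatory sum lay above every WT library. The sums are dominated by the most abundant genes, above all Psmd8.

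A measure in which every gene counts equally also set each Ahrr-deficient library above WT, but did not set replicate 1 nearer to WT. Values were taken relative to each gene's WT mean on the log2 scale. The median regulatory particle gene exceeded the median core gene by 0.13, 0.13 and 0.14 in Ahrr-deficient replicates 1, 2 and 3. In WT the differences were 0.00, -0.01 and 0.01, where values near 0 follow from the reference used. The regulatory medians themselves were 0.01, 0.26 and 0.25 in Ahrr-deficient replicates 1 to 3, and the core medians -0.11, 0.14 and 0.11. So in replicate 1 the difference came with lower core genes and not with higher regulatory genes. By fold change the median was 0.21 in the regulatory particle, where 16 of 17 values were positive and 3 called, and 0.04 in the core particle, where 11 of 15 were positive and 0 called (1 core gene had an unadjusted p under 0.05). Of all tested genes 50.9% had a positive value and 9.62% were called higher, and whether the particles differ in their calls was not tested. With GC offsets the medians were 0.19 and 0.05. The median GC content of the transcripts was 49.7% in the regulatory and 49.2% in the core particle. Without Ahrr-deficient replicate 2 the medians were 0.13 and -0.01.

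**Figure D4:**
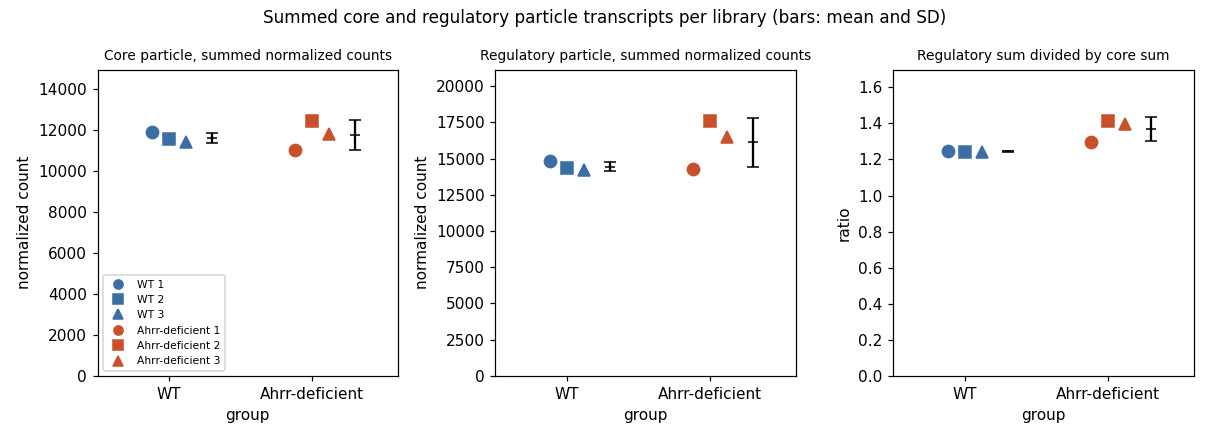
Summed normalized counts of the 15 core and the 17 regulatory particle genes and their ratio (y axes) by group (x axis), with 1 mark per library and the mean and SD beside it. The ratio lies between 1.242 and 1.247 in WT and between 1.295 and 1.415 in Ahrr-deficient libraries. The core sums overlap, and so do the regulatory sums, where Ahrr-deficient replicate 1 lies inside the WT range.

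The base assembly chaperones Psmd5, Psmd9 and Psmd10, which hold ATPase pairs until the base is complete, had log2 fold changes between 0.09 and 0.26 and 0 of 3 were called. The highest, Psmd9, shares 1849 exon bases with Gm26745 on the opposite strand, so its reads are uncertain. Besides Psmb7, opposite exons also overlap 114 bases of Psma4, 215 of Psmc3, 252 of Psmd1, 342 of Psmd13 and 385 of Psmc3ip. They overlap 60 bases or fewer of Psma5, Psmd3 and Psme1. The core assembly chaperones Psmg1 to Psmg4, which help build the alpha ring, had 0 of 4 called and low levels. Of all tested genes 9.62% were called higher and 9.95% lower, so 0 calls are no result about either small group of chaperones. Psmg2 had 87.6, 98.3 and 91.4 normalized counts in WT and 81.9, 130.4 and 113 in Ahrr-deficient replicates 1 to 3 (log2 fold change 0.33, SE 0.17, edgeR adjusted p = 0.196). Psmg3 had 46, 48.2 and 37.7 in WT and 29.3, 55.8 and 75.4 in Ahrr-deficient libraries (log2 fold change 0.38, SE 0.26, edgeR adjusted p = 0.335). Psmg3 had 10 reads in Ahrr-deficient replicate 1, and its log2 fold change was 0.50 without that library (edgeR adjusted p = 0.0863) and 0.13 without replicate 3.

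Activators open the core gate without ubiquitin. Psme1 and Psme2 encode the interferon-inducible activator, Psme3 its nuclear relative and Psme4 a large single-chain activator. None of the 4 was called, beside 9.62% of all tested genes called higher and 9.95% called lower. The median log2 fold change was 0.24. An unadjusted edgeR p under 0.05 was found for 3 of them, beside 18.4% of all tested genes higher and 17.4% lower. Psme3 had 916, 907 and 936 normalized counts in WT and 959.9, 1217 and 1099.9 in Ahrr-deficient replicates 1 to 3 (log2 fold change 0.26, SE 0.09, edgeR adjusted p = 0.0814). Psme4 had 947, 912 and 920.2 in WT and 1247, 1077 and 979.6 in Ahrr-deficient libraries, where replicate 1 was the highest (log2 fold change 0.24, SE 0.10, edgeR adjusted p = 0.116). Both genes had groups that did not overlap. The log2 fold change of Psme4 was 0.14 with GC offsets and also without replicate 1, and that of Psme3 was 0.17 without replicate 2.

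The partners Psme1 and Psme2 did not move alike in these libraries. Psme1 had 1339, 1301 and 1354 normalized counts in WT and 1296, 1282 and 1276 in Ahrr-deficient replicates 1 to 3. Psme2 had 1002, 901 and 1009 in WT and 986, 1212 and 1206 in Ahrr-deficient libraries (log2 fold change 0.23, SE 0.10, edgeR adjusted p = 0.118, and 0.0407 with GC offsets). The difference between the partners was not tested. Psme2 shares 22.9% of its 75-base stretches with Psme2b, which shares 60.2% with Psme2, so reads of this pair are uncertain.

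Psmf1, which encodes an inhibitor of the core particle, had the most negative fold change of the members. It had 281, 317 and 325 normalized counts in WT and 228, 245 and 274 in Ahrr-deficient replicates 1 to 3. The groups did not overlap and replicate 1 was again the lowest (log2 fold change -0.28, 95% interval -0.53 to -0.04, edgeR adjusted p = 0.0980). Psmc3ip had between 2.93 and 9.42 normalized counts and as few as 1 read in a library.

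Levels were compared between members per kilobase of mature transcript. Within the core alpha ring they ran from 16.4 normalized counts per kb for Psma8 to 1213 for Psma6, and leaving out Psma8 the lowest core level was 166 for Psma3. Core beta levels ran from 331 for Psmb5 to 1782 for Psmb6, a 5.38-fold range. Only a barrel without immunoproteasome subunits holds these subunits in equal number. The ATPases were the most even group, from 318 for Psmc6 to 498 for Psmc3, a 1.56-fold range. Non-ATPase levels ran from 215 for Psmd11 to 1815 for Psmd8. The top members were Psmd8 (1815 ± 265, SD over 6 libraries) and Psmb6 (1782 ± 221), with Psma6 (1213 ± 59.2) and Psme1 (1176 ± 28.5) below them. These SDs pool both genotypes, and the order within either pair was not tested. Per kb of the transcripts chosen here, Psmb6 stood above Psmd8 in each WT library and below it in each Ahrr-deficient library. Divided by the union of all annotated exons, Psmb6 stood below Psmd8 in every library of both genotypes. Neither gene was called between the genotypes. Chaperones and Psmf1 lay at 55.2 to 173 normalized counts per kb, a range that also held Psma3 (166), Psme4 (156) and Psme2b (83.7).

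**Figure D5:**
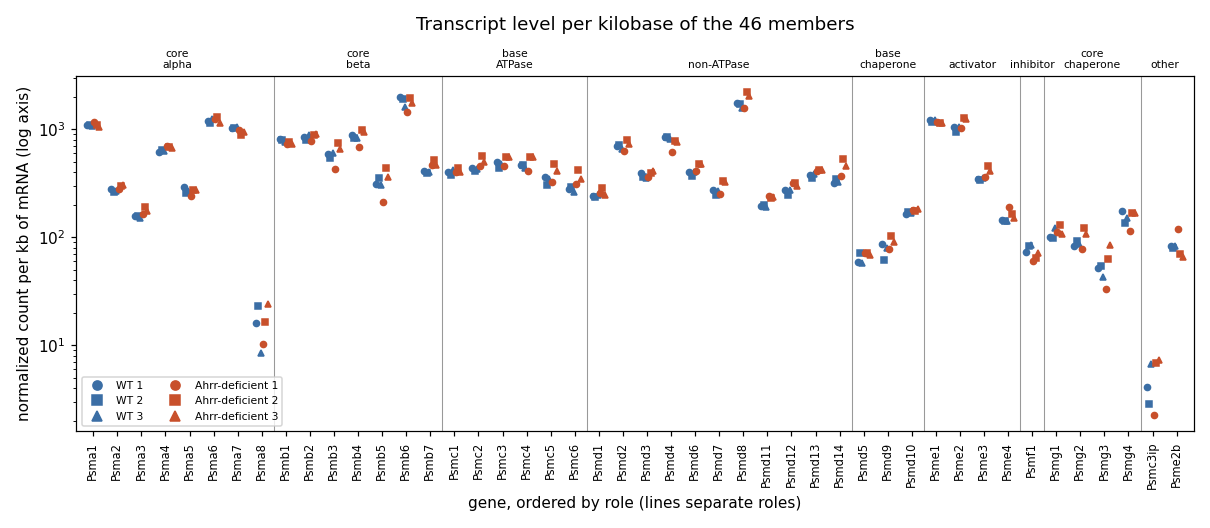
Normalized count per kb of mature transcript (y axis, log scale) of the 46 members (x axis) by role in each library, with colours for genotype and shapes for replicates. Psmd8 and Psmb6 lie highest, Psma8 and Psmc3ip lowest, and libraries of both genotypes lie close together within most genes.

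These levels depend on the transcript chosen for length. Divided by the union of all annotated exons, Psma6 (1024) stood above Psmd8 (914) and Psmb6 (759.5).

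Ahrr-deficient replicate 1 stood apart within its group for these genes. It was the lowest of the 3 Ahrr-deficient libraries in 29 of 45 members (64.4%) and the highest in 9 (20%), beside 43.6% and 39.4% of all tested genes. Over the 15 members of lowest transcript GC content (37.0% to 46.9%) its median difference from the mean of replicates 2 and 3 was -0.04 on the log2 scale. It was -0.22 over the 15 members of middle and -0.32 over the 15 of highest GC content (51.5% to 57.4%). All 3 called genes were in the 15 of lowest GC content, where 15 of 15 fold changes were positive, against 10 of 15 at the highest. The median log2 fold changes were 0.19, 0.12 and 0.15 at the lowest, middle and highest GC content. Across the 45 members the log2 fold change had a Pearson r of -0.41 and a Spearman rho of -0.36 with GC content, and across 11394 tested genes -0.19 and -0.28. These are descriptions across genes that share the same 6 libraries, and the part of GC content or depth in the fold changes was examined through the GC offsets and by thinning. After thinning every library to the smallest total, 0 members were called, and the log2 fold changes of Psmd14, Psmd11 and Psmc6 were 0.36, 0.24 and 0.44 (edgeR adjusted p = 0.105, 0.194 and 0.0786).

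The immunoproteasome subunits that replace the catalytic ones were read beside their counterparts. Psmb9 fell, from 433 ± 45.0 to 305 ± 46.1 normalized counts (SD, n = 3; log2 fold change -0.50, edgeR adjusted p = 0.0253). The count ratio of Psmb10 to Psmb7 was 2.39, 2.08 and 2.62 in WT and 1.78, 1.54 and 1.98 in Ahrr-deficient replicates 1 to 3, without overlap, whereas the other 2 ratios overlapped. That of Psmb8 to Psmb5 ran from 1.63 to 2.18 in WT and from 1.39 to 2.29 in Ahrr-deficient libraries, and that of Psmb9 to Psmb6 from 0.25 to 0.36 and from 0.19 to 0.25.

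Beyond the subunits, 40 listed genes of the pathway were read from the same fit. Of these 39 were in the table and 38 were tested, with 5 higher and 2 lower at an edgeR adjusted p under 0.05, beside 9.62% and 9.95% of all tested genes, so neither count is a result about these lists. Among 8 proteasome-bound factors (median log2 fold change 0.20) 2 rose: Usp14, the deubiquitinase that docks on the base, from 749 ± 22.4 to 1064 ± 101 normalized counts (SD, n = 3; log2 fold change 0.51, edgeR adjusted p = 0.00758), and AI314180, the gene of the adaptor Ecm29, which rose by 0.33 on the log2 scale (edgeR adjusted p = 0.0221). Usp14 had 765, 723 and 758 in WT and 1086, 1153 and 954 in Ahrr-deficient libraries. Here replicate 1 stood with its group.

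Among 8 tested genes of the transcriptional control of the proteasome (median log2 fold change 0.27), 2 rose and 1 fell. Mafg, a small Maf partner of Nfe2l1 and Nfe2l2, rose from 522 ± 34.2 to 848 ± 165 normalized counts (SD, n = 3; log2 fold change 0.72, edgeR adjusted p = 0.00842). Ngly1, the glycanase that helps activate Nfe2l1, rose by 0.32 on the log2 scale (edgeR adjusted p = 0.0401). Ddi2, the protease that cleaves Nfe2l1, fell by 0.33 on the log2 scale (edgeR adjusted p = 0.0444). Nfe2l1 had 2418, 2543 and 2080 normalized counts in WT and 2125, 3509 and 2987 in Ahrr-deficient replicates 1 to 3 (log2 fold change 0.30, SE 0.17, edgeR adjusted p = 0.233). Its replicate 1 was again the lowest of the group and lay inside the WT range.

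Of 10 extraction and shuttling genes (median log2 fold change 0.11) 1 rose, the ubiquitin shuttle Ubqln1 (log2 fold change 0.32, edgeR adjusted p = 0.0225). None of 3 tested assembly and import genes was called, and Pomp, the maturation factor of the core, had 603, 603 and 615 normalized counts in WT and 635, 587 and 572 in Ahrr-deficient libraries (log2 fold change -0.03, SE 0.08). Of 6 ubiquitin and E1 genes (median log2 fold change 0.00) 0 were called. Of the 3 immunoproteasome genes 1 fell, Psmb9.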

How the data were processed

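Polyadenylated RNA of 6 cultures was sequenced as single 75 bp reads from 100 ng of RNA, per the labels' protocols. The submitters' processing notes list CASAVA 1.8.2, fastp 0.20.0, STAR 2.7.10b, SAMtools 1.16.1, R 4.3.1, DESeq2 1.40.2 and mm10. The read counter, its use of strand and the annotation are not given in the sources used here. The authors deposited raw counts for 53465 features without identifiers and, for 16111 genes with identifiers, a signal of counts divided by a size factor per library (called normalized counts here). Each deposited signal value was a whole number of reads (100% within 0.01 reads), and the recovered reads of every gene equalled a row of the raw counts, so these reads were tested. Features with fewer than 10 counts over all libraries have no identifier and held 0.0232% to 0.0511% of a library's counts. They entered library totals, the fit with no filter and the DESeq2 fit. None was among the 11408 genes tested here, of which 2232 were called.

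The quasi-likelihood test of edgeR 4.0.16 (R 4.3.3) was fitted over all genes with TMM scaling, filterByExpr and genotype as the only term. P-values are two-sided, with Benjamini-Hochberg adjustment over 11408 genes and a threshold of 0.05. Standard errors come from the fold change and F statistic. The biological coefficient of variation was 13%. Deposited signal values are printed per library, and fold changes come from the fit. Positions, lengths (longest APPRIS principal transcript) and GC content (longest transcript) come from GENCODE M21 on GRCm38. Genotype groups and replicate numbers come from titles, and p-values measure the spread between these cultures.

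The members and all gene lists were chosen with earlier results of these data known. Genes described in full were the called members, the highest and lowest per kb in each of the 4 core and regulatory groups, members left out by the filter, and the 3 largest fold changes that missed the threshold. Other members described were chosen after their values were seen. Alternatives were DESeq2 1.42.0, limma-voom (limma 3.58.1), scaling by RLE or upper quartiles, keeping every gene, keeping genes that average 50 counts or more, a replicate block, thinning to the smallest total, GC offsets (lowess span 0.3), each library left out, and 1 added later. Figures used Python 3.11.15 and matplotlib 3.10.9.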

Additional observations from a re-analysis of the deposited data

How the results depend on the processing

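The median log2 fold change of the members stayed between 0.09 and 0.17 under all 17 alternatives, and the count of members called lower was 0 in each. The number called higher, 3 with all libraries, ran from 0 to 15 when 1 library was left out, was 12 without WT replicate 2 and Ahrr-deficient replicate 1, 1 with upper-quartile scaling and 0 after thinning to the smallest total, and was between 2 and 4 with RLE scaling, either filter, DESeq2, limma-voom and GC offsets. GC offsets gave 2, but these were Psmc3 and Psme2. The cause was not tested. The labels link same-numbered libraries by number only. The correlations of their deviations from group means were -0.169, 0.071 and 0.129. With so few libraries, these values cannot decide whether same-numbered cultures were prepared together. With the replicate block 1 member was higher (Psmd14), and with the replicate block and GC offsets 0 were. Of 390 values of 23 named members under these alternatives, 328 kept direction and side of the threshold and 11 changed sign, all between -0.10 and 0.03: Psmb5 was -0.03 after thinning, and with libraries left out it ran from -0.10 (without Ahrr-deficient replicate 2) to 0.40. Psma7 was 0.01 with GC offsets and 0.02 with the replicate block and GC offsets, and Psma6 was -0.03 in both. With libraries left out, Psma6 ran from -0.01 (without Ahrr-deficient replicate 2, and without the 2 libraries) to 0.08, and Psmb6 from -0.20 to 0.03 (without the 2 libraries). Psma8 ran from -0.06 (without Ahrr-deficient replicate 3; -0.05 without WT replicate 3) to 0.48. The fewest reads in a library were 10 for Psmg3, 6 for Psma8 and 1 for Psmc3ip, and counting error was not separated from the spread between cultures.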

Other observations

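Other motifs in the promoter windows of the 38 matched members were counted on either strand. CCAAT was found in 13 members (34.2%), beside 41.1% of all genes with a window and 43.3% of the tested genes, and GGGCGG, the GC box, in 22 (57.9%), beside 38.2% of all genes and 69.3% of the tested genes. TNGCGTG, which contains the core that the aryl hydrocarbon receptor binds, was found in Psmb5 and Psme4 only among these 38, or 5.26%, beside 5.84% of all genes and 9.6% of the tested genes. CACGTG, the E box, was found in 3 members, Psma4, Psmd9 and Psme3 (7.89%), beside 8.09% of all genes and 12.3% of the tested genes.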
